A study of Homo sapiens with 30 samples.

Results

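The AP-1 and immediate early genes examined here were FOS, FOSB, FOSL1, FOSL2, JUN, JUNB, JUND, ATF3, EGR1 and IER2. They were chosen by name, and all 10 were found among the 20367 gene symbols of the PRO-Seq table. G401 cells, an established line from a malignant rhabdoid tumor (MRT) that lacks the SWI/SNF subunit SNF5 (SMARCB1), carried a lentiviral construct for inducible EGFP, OmoMYC or SNF5. OmoMYC is a dominant-negative form of MYC. Transduced cells were selected with G418, and all groups, the EGFP control included, received 1 μg/ml doxycycline for 24 h. PRO-Seq, which maps engaged RNA polymerases, and ATAC-Seq, which maps accessible chromatin, had 3 samples per construct, and MYC ChIP-Seq had 2. The labels do not say whether replicates were separate transductions or separate platings of one, so p-values measure only the spread between these samples.

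AP-1 is a dimer of basic leucine zipper proteins. JUN, JUNB and JUND can pair with each other or with FOS, FOSB, FOSL1 and FOSL2, and the dimers bind the TPA response element (TRE), whereas dimers with ATF proteins such as ATF3 can bind the cAMP response element (CRE). EGR1, a zinc finger factor, and IER2 belong with FOS and JUN to the immediate early genes, which growth factor and stress kinases induce without new protein synthesis, in part through serum response factor at CArG boxes.

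The promoters of 4 of the genes are shown, without that of JUNB, which was also called with SNF5 below. Each is given as the 250 bases upstream of the annotated start, 5′ to 3′ on the strand of the gene, from the RefSeq promoter set of build GRCh38.p14. They lie at chr1:58784048-58784297 on the minus strand for JUN, chr2:28392608-28392857 on the plus strand for FOSL2, chr19:18281623-18281872 on the minus strand for JUND and chr5:138465229-138465478 on the plus strand for EGR1. Capitals mark exact matches, on either strand, to the TRE (TGANTCA), the CRE (TGACGTCA), the E-box bound by MYC (CACGTG) or the CArG box.

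JUN: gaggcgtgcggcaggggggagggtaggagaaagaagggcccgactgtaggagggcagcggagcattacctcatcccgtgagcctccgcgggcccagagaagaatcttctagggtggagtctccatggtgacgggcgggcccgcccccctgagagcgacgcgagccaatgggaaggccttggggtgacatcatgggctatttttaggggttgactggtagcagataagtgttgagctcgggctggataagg
FOSL2: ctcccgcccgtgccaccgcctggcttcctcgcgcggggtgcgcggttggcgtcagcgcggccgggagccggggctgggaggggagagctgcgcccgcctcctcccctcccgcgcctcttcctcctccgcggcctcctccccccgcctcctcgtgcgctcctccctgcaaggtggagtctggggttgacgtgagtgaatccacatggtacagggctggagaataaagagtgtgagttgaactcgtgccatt
JUND: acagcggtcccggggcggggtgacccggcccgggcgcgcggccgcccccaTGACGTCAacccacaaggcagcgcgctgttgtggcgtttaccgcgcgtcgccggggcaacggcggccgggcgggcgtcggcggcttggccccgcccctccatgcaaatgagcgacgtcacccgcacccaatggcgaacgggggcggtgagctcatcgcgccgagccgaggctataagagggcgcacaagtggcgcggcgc
EGR1: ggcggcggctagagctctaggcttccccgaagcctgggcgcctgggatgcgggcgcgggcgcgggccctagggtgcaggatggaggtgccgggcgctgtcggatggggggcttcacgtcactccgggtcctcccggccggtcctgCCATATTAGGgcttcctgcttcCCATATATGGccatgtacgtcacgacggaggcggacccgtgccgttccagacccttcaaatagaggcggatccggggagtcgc

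JUND held 1 CRE and EGR1 held 2 CArG boxes, which do not overlap each other. JUN and FOSL2 held no exact match in these 250 bases, and FOSL2 had 1 TRE beginning 4 bases after its start. The promoter entries of FOS, FOSB, JUNB, ATF3 and IER2, not shown, held none of these motifs. No promoter entry of any of the genes examined held an E-box. Of 34796 distinct promoter sequences in the set, 7.73% held a TRE, 1.84% a CRE, 7.2% an E-box and 1.3% a CArG box. FOSL1 had no entry, and the ATF3 entries begin at other starts than the canonical one. A match is a run of letters and not evidence of binding.

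PRO-Seq libraries held 28388012 to 46859674 gene body reads. Promoter-proximal reads made up 1.46 to 1.97% of reads in the replicate 1 libraries, 8.63 to 10.3% in replicate 2 and 4.22 to 5.13% in replicate 3, so values were compared within a replicate number. SMARCB1 had 1 to 6 gene body reads in each EGFP and OmoMYC library and 2870 to 4467 in the SNF5 libraries. MYC gene body reads were 1.94-fold higher with OmoMYC than with EGFP (log2 0.95 ± 0.22, edgeR adjusted p = 0.0378), where reads from endogenous MYC and from the OmoMYC construct cannot be told apart. Adjusted p-values are from edgeR's quasi-likelihood test over all genes with Benjamini-Hochberg adjustment at 0.05, ± after a log2 fold change is its standard error, and both constructs were compared with the same EGFP samples.

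The genes differed widely in transcription in the EGFP control. The gene body level is given as reads per kb of gene body per 1000000 scaled gene body reads of the library. Its mean was 60.1 ± 21.6 (SD, n = 3) for JUND, 21.5 ± 4.66 for IER2, 7.99 ± 0.615 for FOSL1, 7.81 ± 4.28 for EGR1 and 7.29 ± 1.46 for JUNB. It was 4.29 ± 2.08 for FOS, 3.42 ± 0.778 for FOSL2, 2.43 ± 0.994 for ATF3, 1.70 ± 0.301 for JUN and 0.907 ± 0.371 for FOSB. JUND and IER2 stood above the other genes in every EGFP library, with ranges that did not overlap those of any other of the genes or each other. From FOSL1 down to JUN each neighbour in this order overlapped the next, and FOSB lay below JUN in every library. JUND lay at percentile 99.9 of all tested genes, JUN at percentile 60.2 and FOSB at percentile 42.3. The gene bodies of JUNB and JUND are short, at 816 and 870 bp. The gene body window of ATF3, 54444 bp, begins far upstream of the canonical start and includes it, so the ATF3 level averages over sequence before that start and takes in reads at its promoter, and its place in this order is uncertain.

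With SNF5, transcription of JUN and FOSL2 rose and that of JUNB and JUND fell against EGFP. These 4 of 10 genes passed the test on gene body counts, beside 34.1% of all genes tested. The median log2 fold change of the 10 was -0.19, beside -0.03 over all genes. Without the replicate block, each gene body call among the 10 other than that of JUN with SNF5 against EGFP was lost, and the genes of the other lists below were not refitted one by one under the alternatives. The plot of gene body signal by library shows each gene.

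**Figure D1:**
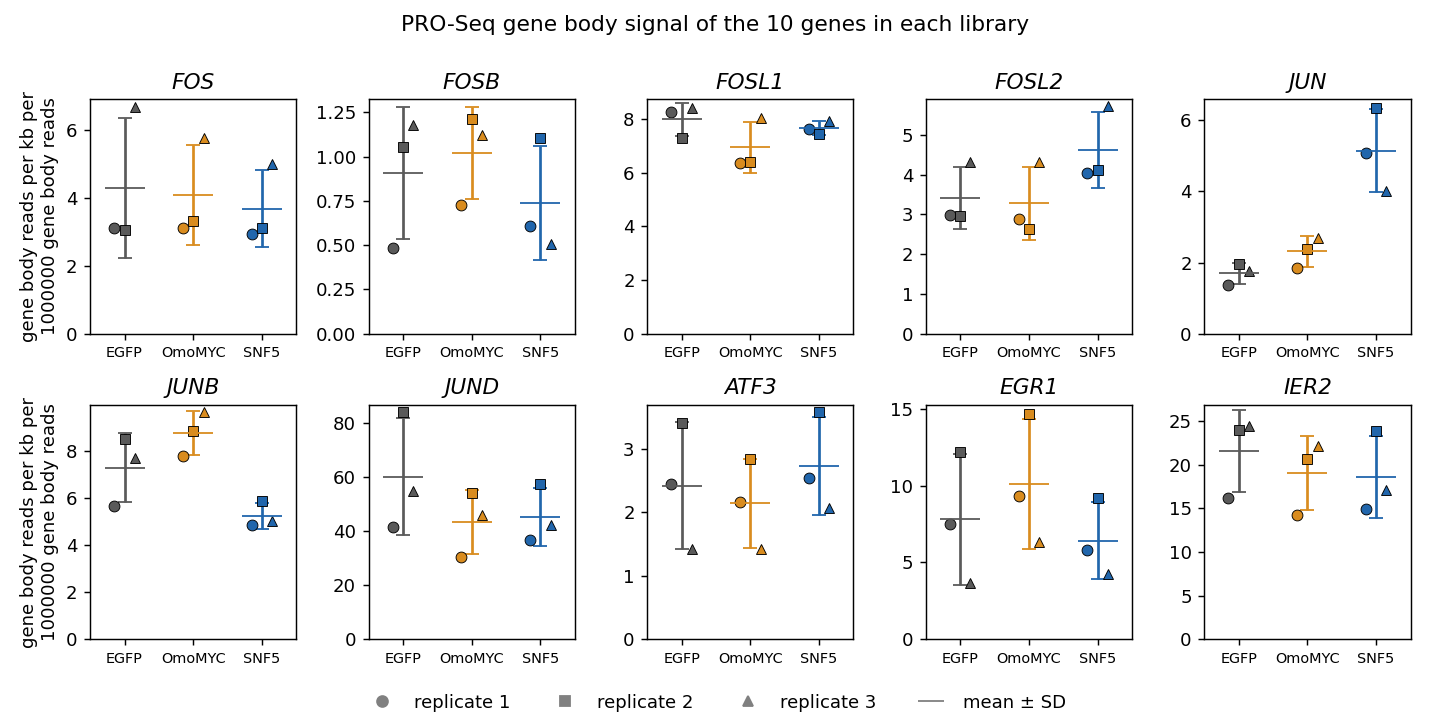
Gene body level (y axis, reads per kb per 1000000 gene body reads, linear, from 0) of each of the 10 genes in the 9 PRO-Seq libraries, grouped by construct on the x axis; symbols mark the replicate number, bars the mean and SD of 3 libraries. JUN lies between 4.002 and 6.34 in the SNF5 libraries, above the 1.37 to 2.70 of the other 6.

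JUN, the founding subunit of AP-1, had gene body levels, on the same scale, of 1.37, 1.96 and 1.77 with EGFP, 1.85, 2.38 and 2.70 with OmoMYC and 5.08, 6.34 and 4.002 with SNF5. All SNF5 libraries were above all others, whereas EGFP and OmoMYC overlapped. JUN rose 3.03-fold with SNF5 (log2 1.60 ± 0.19, edgeR adjusted p = 0.000503), by 1.89, 1.69 and 1.18 within replicate numbers 1, 2 and 3. It kept an edgeR adjusted p under 0.05 without the replicate block (0.0285). With OmoMYC the log2 difference was 0.46 ± 0.19 (edgeR adjusted p = 0.154). The direct comparison of SNF5 with OmoMYC gave a log2 fold change of 1.14 ± 0.19 (edgeR adjusted p = 0.00347), which was lost without the block and on leaving out replicate number 1 or 2.

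FOSL2, which encodes the FOS-family protein FRA-2, had levels of 2.99, 2.95 and 4.32 with EGFP, 2.88, 2.62 and 4.33 with OmoMYC and 4.03, 4.12 and 5.72 with SNF5. Replicate 3 was highest in each construct, so the groups overlapped, but SNF5 was above EGFP in each replicate number by 0.43, 0.48 and 0.41 log2. FOSL2 rose 1.36-fold with SNF5 (log2 0.44 ± 0.06, edgeR adjusted p = 0.00115) and was 1.43-fold higher with SNF5 than with OmoMYC (log2 0.51 ± 0.06, edgeR adjusted p = 0.000819). Both calls were kept when any one library or replicate number was left out and were lost without the block (edgeR adjusted p = 0.477 and 0.605).

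JUNB, a JUN protein that can restrain JUN activity, had levels of 5.66, 8.50 and 7.70 with EGFP, 7.80, 8.82 and 9.65 with OmoMYC and 4.85, 5.88 and 5.01 with SNF5. The SNF5 libraries lay below all OmoMYC libraries and overlapped EGFP. JUNB fell 0.46 log2 (SE 0.15, edgeR adjusted p = 0.0418) against EGFP, and was 0.74 log2 lower with SNF5 than with OmoMYC (-0.74 ± 0.15, edgeR adjusted p = 0.00955). The first of these calls was lost on leaving out any one of the EGFP or SNF5 libraries, or OmoMYC replicate 1 or 2. The edgeR adjusted p of that call reached 0.375 over all settings. The second was lost without OmoMYC replicate 1, and both were lost without replicate number 1 or 2.

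JUND, the most highly transcribed of the 10, had levels of 41.5, 83.8 and 54.9 with EGFP, 30.5, 53.8 and 45.9 with OmoMYC and 36.5, 57.2 and 42.0 with SNF5. Within every replicate number both constructs were below EGFP. It was lower by -0.38 ± 0.09 log2 with SNF5 (edgeR adjusted p = 0.014) and by -0.45 ± 0.09 with OmoMYC (edgeR adjusted p = 0.0298), and SNF5 and OmoMYC differed by 0.07 ± 0.09 (edgeR adjusted p = 0.641). The SNF5 call was lost without EGFP replicate 2 or SNF5 replicate 2, and the OmoMYC call without replicate 1 or 2 of either EGFP or OmoMYC. Leaving out replicate number 2 lost both calls, and leaving out replicate number 1 lost the OmoMYC call. JUND was the only one of the 10 called with OmoMYC, beside 8.53% of all genes.

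EGR1 had gene body levels of 7.52, 12.2 and 3.69 with EGFP, 9.36, 14.7 and 6.35 with OmoMYC and 5.84, 9.19 and 4.26 with SNF5. OmoMYC was highest in each replicate number. SNF5 and OmoMYC differed by -0.64 ± 0.12 log2 (edgeR adjusted p = 0.00724), while the differences from EGFP were -0.20 ± 0.12 with SNF5 (edgeR adjusted p = 0.232) and 0.44 ± 0.12 with OmoMYC (edgeR adjusted p = 0.0567). The call between SNF5 and OmoMYC was lost on leaving out replicate number 1 or 2, with edgeR adjusted p up to 0.844 over all settings.

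ATF3, a stress-induced partner of the JUN proteins, had levels of 2.45, 3.41 and 1.42 with EGFP, 2.17, 2.84 and 1.42 with OmoMYC and 2.54, 3.58 and 2.07 with SNF5. SNF5 was highest in each replicate number. The difference between SNF5 and OmoMYC was 0.37 ± 0.09 log2 (edgeR adjusted p = 0.0216), and it was lost on leaving out any single OmoMYC library. ATF3 differed from EGFP by 0.22 ± 0.09 with SNF5 (edgeR adjusted p = 0.0869) and by -0.15 ± 0.09 with OmoMYC (edgeR adjusted p = 0.308). Together with JUN, FOSL2, JUNB and EGR1, ATF3 made 5 of 10 genes called between SNF5 and OmoMYC, beside 18.9% of all genes. Without replicate number 1, or without replicate number 2, FOSL2 alone of the 10 was called in this comparison. The table counted ATF3 on a transcript that begins upstream of the canonical start, and 1 promoter-proximal read was found there in 9 libraries, so the promoter-proximal count and pausing index of ATF3 were not tested.

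FOS, FOSB, FOSL1 and IER2 passed in no gene body comparison. FOS ranged from 3.07 to 6.69 with EGFP, 3.13 to 5.78 with OmoMYC and 2.95 to 4.999 with SNF5, and differed from EGFP by -0.17 ± 0.12 log2 with SNF5 and -0.04 ± 0.12 with OmoMYC. FOSB, the least transcribed, ranged from 0.485 to 1.18 with EGFP and 0.505 to 1.11 with SNF5, and differed by -0.28 ± 0.27 with SNF5 and 0.19 ± 0.26 with OmoMYC. FOSL1, which encodes FRA-1, differed by -0.06 ± 0.07 with SNF5 and by -0.20 ± 0.07 with OmoMYC, and IER2 by -0.21 ± 0.10 and -0.18 ± 0.10. Among the FOS-family genes only FOSL2 was therefore called in the gene body.

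**Figure D2:**
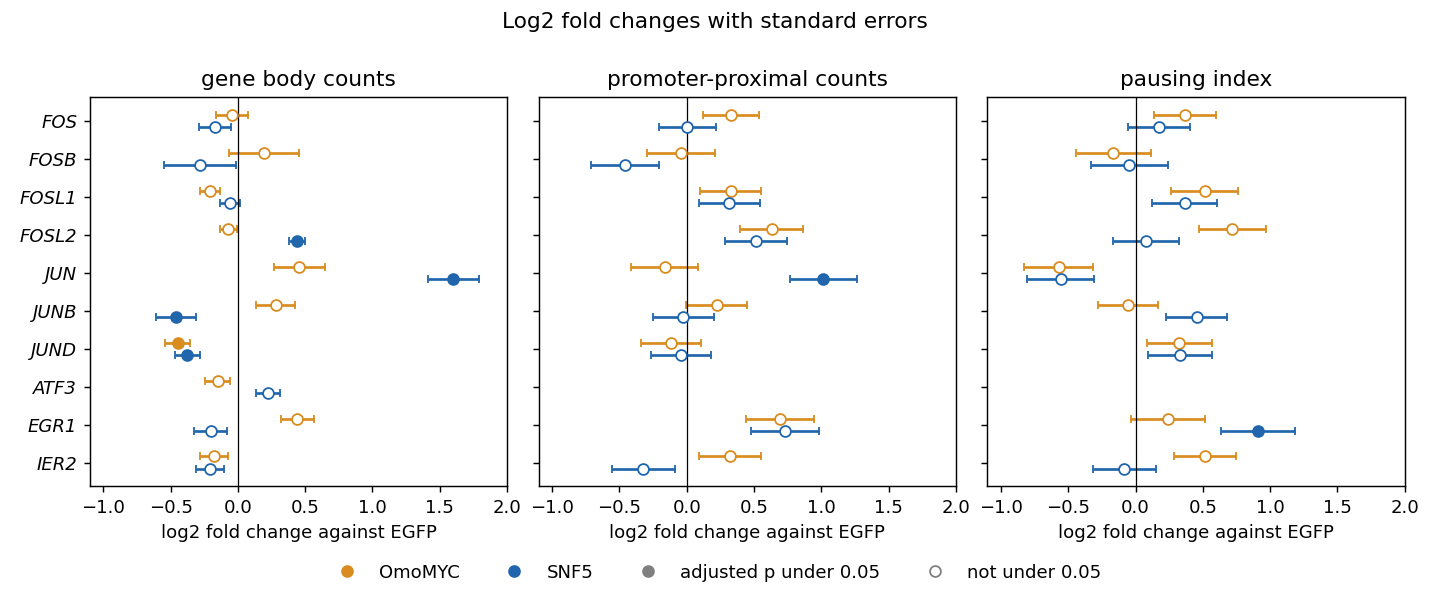
Log2 fold change against EGFP (x axis) for gene body counts, promoter-proximal counts and the pausing index of each gene (y axis), with OmoMYC and SNF5 in separate colors; bars are standard errors and filled points have an edgeR adjusted p under 0.05. JUN with SNF5 stands at 1.60 in the gene body and 1.02 near the promoter, and ATF3 has no value in the other panels.

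Near promoters, JUN was the 1 gene called. Its promoter-proximal counts were 88, 470 and 373 with EGFP, 142, 417 and 223 with OmoMYC and 417, 1195 and 391 with SNF5, before scaling. JUN rose 2.02-fold with SNF5 (log2 1.02 ± 0.25, edgeR adjusted p = 0.0134) and was 2.26-fold higher than with OmoMYC (log2 1.18 ± 0.25, edgeR adjusted p = 0.00755). It was the only one of 9 tested genes called in either comparison, beside 4.27% and 0.827% of all genes, and none of the 9 was called with OmoMYC against EGFP, beside 1.8%. In that comparison 2 of the 9 had an unadjusted p under 0.05, and DESeq2 called 0. Within replicate numbers JUN differed between SNF5 and EGFP by 2.02, 1.08 and 0.12 log2, so the rise was large in replicate 1 and near absent in replicate 3. The call was lost without EGFP replicate 1 or 2, without SNF5 replicate 1 or 2, and without the block, and the call against OmoMYC was lost without OmoMYC replicate 2, SNF5 replicate 1 or 2, or the block. Without EGFP replicate 1, FOSB and EGR1 were called with SNF5 in place of JUN, without replicate number 1 EGR1 alone was called, and promoter-proximal scaling added EGR1 to JUN.

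The pausing index, the ratio of promoter-proximal to gene body read density, was called for EGR1. It was 1.84, 3.19 and 4.45 with EGFP, 2.29, 4.81 and 3.78 with OmoMYC and 2.71, 7.57 and 7.69 with SNF5, and SNF5 was highest in each replicate number. EGR1 rose 1.88-fold with SNF5 (log2 0.91 ± 0.27, edgeR adjusted p = 0.0441), on 24 to 58 promoter-proximal reads per EGFP library and 32 to 124 per SNF5 library. That made 1 of 9 genes, beside 3.66% of all genes, and the call was lost with DESeq2, without the block, and on leaving out any of 5 single libraries, EGFP replicate 2, OmoMYC replicate 1 or 2 and SNF5 replicate 2 or 3. JUN had an index of 37.2, 162 and 91.2 with EGFP and 40.6, 106 and 43.9 with SNF5, a log2 difference of -0.55 ± 0.25 (edgeR adjusted p = 0.208). With OmoMYC, and between SNF5 and OmoMYC, 0 of 9 genes were called by edgeR or DESeq2, beside 2.26% and 1.23% of all genes, and 4 of the 9 in each had an unadjusted p under 0.05.

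MYC peaks were found near the starts of 3 of the 10 genes, in EGFP cells only. Positions are in bases from the start, negative upstream. FOSL2 had a MYC summit at -25 in EGFP replicate 1 (3.77-fold enrichment over background) and at -45 in replicate 2 (8.41-fold). It was the only one of the 10 with a summit within 1 kb in both EGFP libraries, beside 4.72% of 16981 genes. ATF3 had one at -66 from its canonical start (5.54-fold) and FOSL1 one at 903 (4.80-fold), each in EGFP replicate 2 alone, so that 3 of 10 had a peak in at least 1 EGFP library, beside 24.6% of genes. EGFP replicate 2 held 5396 peaks and replicate 1 held 940. None of the 10 had a summit within 1 kb in a SNF5 library, beside 0.73% of genes with one in at least 1. The SNF5 libraries, with 137 and 27 peaks, also had none within 50 kb of these starts, and the OmoMYC lists held no peaks. JUN, like FOS and EGR1, had no MYC peak within 50 kb in any library. The share of all genes without a MYC peak within 50 kb was not counted.

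ATAC-Seq peaks lay within 1 kb of the starts of 6 of 10 genes in all 3 EGFP libraries, 4 in all 3 OmoMYC libraries and 7 in all 3 SNF5 libraries, beside 32.3%, 28.8% and 46.8% of all genes. JUN, FOSL2, ATF3 and EGR1 had such a peak in all 9 libraries. The peak at JUN had an enrichment over background of 6.44, 7.02 and 8.43-fold with EGFP, 5.41, 8.75 and 7.17-fold with OmoMYC and 8.05, 9.91 and 9.68-fold with SNF5. SNF5 was higher than EGFP in each replicate number, and the ranges overlapped. Whether libraries of the same number form pairs was examined for PRO-Seq only. FOSL1 and JUND lacked a peak in OmoMYC replicate 3 only, FOS had one in all SNF5 libraries, in EGFP replicates 2 and 3 and in OmoMYC replicate 2, and FOSB had one in EGFP replicate 2 alone. JUNB and IER2 had none within 1 kb in any library, as did 42% of all genes, although both were transcribed in every library. Just outside this window, JUNB had a peak near -1451 in 2 EGFP, 1 OmoMYC and 1 SNF5 library. IER2 had one near 1371 in 1 EGFP, 1 OmoMYC and 2 SNF5 libraries. FOSB had one near 1345 in 1 EGFP, 1 OmoMYC and 3 SNF5 libraries.

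**Figure D3:**
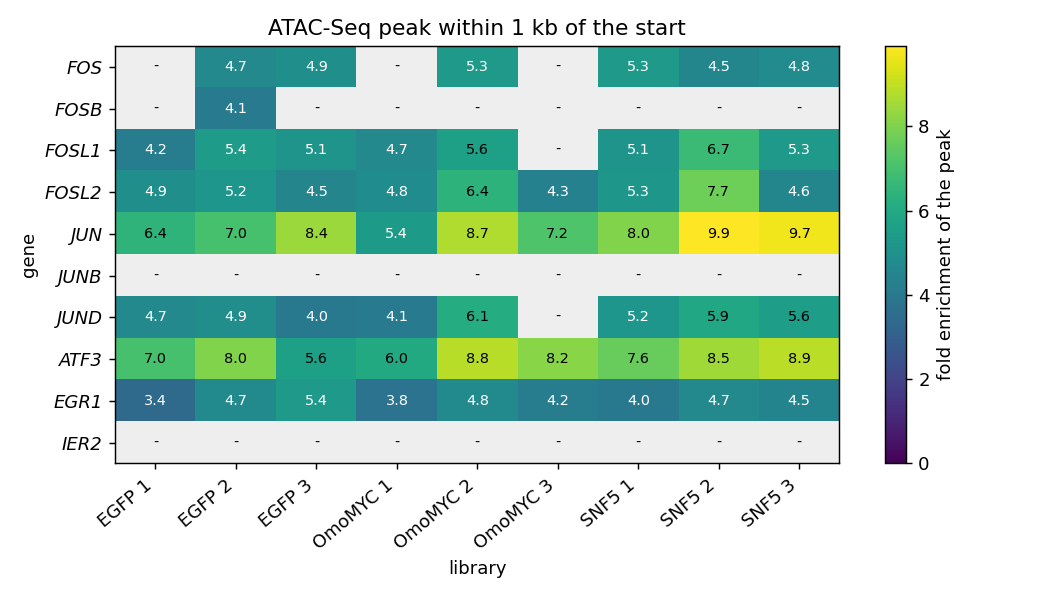
Fold enrichment over background of the ATAC-Seq peak within 1 kb of each start, as printed in each cell and by color, for the 10 genes (y axis) in 9 libraries (x axis); a dash marks a start with no peak. JUN and ATF3 carry peaks in all 9 libraries, and JUNB and IER2 in none.

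Farther from the starts, the SNF5 libraries listed more peaks around JUN. Within 50 kb of its start there were 1, 1 and 1 peaks with EGFP, 1, 2 and 1 with OmoMYC and 6, 4 and 2 with SNF5. Such gains were not particular to JUN. FOSL1 had 4, 3 and 2 peaks with EGFP and 8, 8 and 3 with SNF5. JUND, whose transcription fell, had 3, 3 and 2 with EGFP and 5, 5 and 4 with SNF5. FOSB, ATF3, EGR1 and IER2 had as many or more with SNF5 in each replicate number, and FOS and JUNB had fewer in replicate 2. A site at 28317 from the JUN start, at chr1:58755539-58755862 (hg38), had a peak in 3 of 3 SNF5 libraries and in 0 of 6 others, with an enrichment of 5.42 to 7.13-fold. A second, at -39712, had one in 2 SNF5 libraries alone. How many other genes had such sites within 50 kb was not counted. FOSL2, the other gene that rose, had 1 peak within 50 kb in each of 9 libraries, the one at its start. The plot of peaks around JUN and FOSL2 shows this difference.

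**Figure D4:**
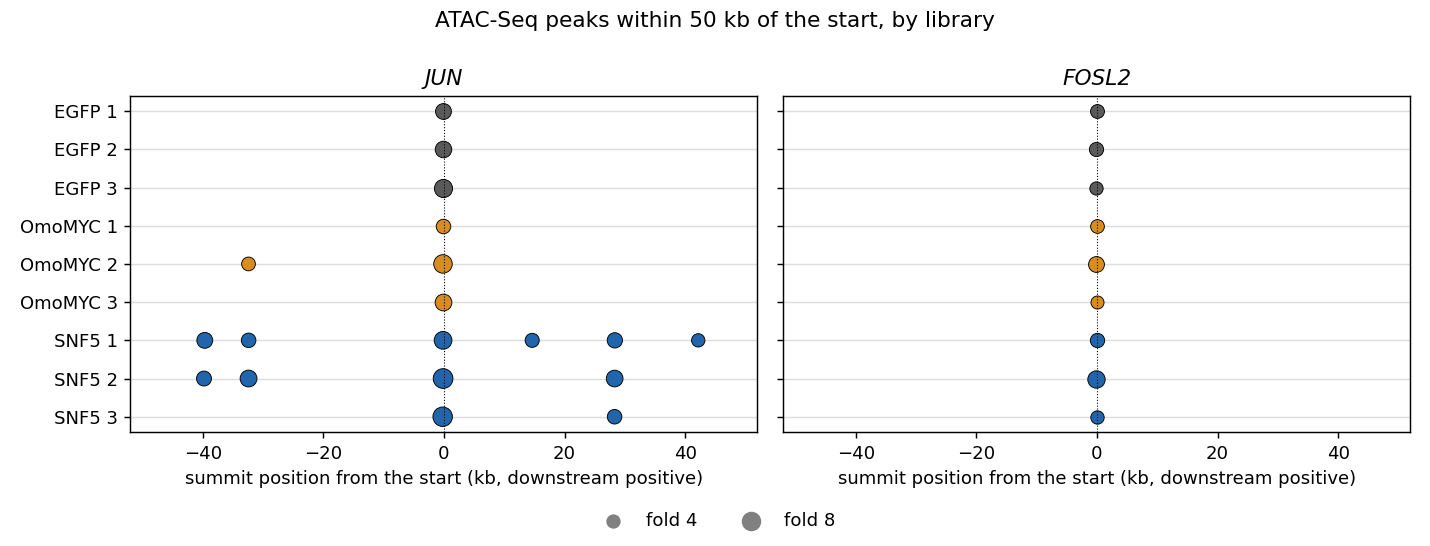
Summits of ATAC-Seq peaks within 50 kb of the JUN and FOSL2 starts (x axis, kb from the start, downstream positive) in each library (y axis); point area is proportional to fold enrichment. All 3 SNF5 libraries have a JUN peak at about 28317 bases downstream that no other library has.

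Peaks around all 10 genes were more numerous with SNF5 but so were peaks in total. The 10 loci together held 20, 28 and 11 peaks with EGFP, 13, 38 and 11 with OmoMYC and 50, 36 and 28 with SNF5. SNF5 exceeded EGFP by 18.3 peaks (38.0 ± 11.1 against 19.7 ± 8.50, SD, n = 3; two-sided exact permutation p = 0.2, the smallest possible being 0.1). The ratio was 1.93 at these loci and 2.10 for all peaks, and per 1000 peaks the loci held 1.36 with SNF5 and 1.46 with EGFP (exact permutation p = 0.6). When the 7260 strongest peaks of each library were taken, the difference turned to -2.67. Of 59 merged sites, 7 were found in all libraries and 2, near JUN and JUND, in all SNF5 and no EGFP library. The JUND site, at -10541, was also found in 1 OmoMYC library. The share of such sites over the whole genome was not counted, so these 2 cannot be set above or below it.

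Among 30 tested other immediate early genes, 5 rose and 5 fell in the gene body with SNF5, a share close to the 34.1% of all genes called. NR4A3, an orphan nuclear receptor, rose most (log2 2.01 ± 0.21, edgeR adjusted p = 0.000295), with 34, 39 and 58 reads with EGFP and 193, 184 and 197 with SNF5. NR4A2, from the same family, fell (-1.04 ± 0.30), on only 47, 38 and 52 reads with EGFP and 34, 23 and 17 with SNF5. The glucocorticoid-induced kinase gene SGK1 (0.98 ± 0.19) and TIPARP (0.96 ± 0.15) rose. The median over the list was -0.02, beside -0.03 over all genes. With OmoMYC, beside 8.53% of all genes called, 1 rose (CYR61, 0.33 ± 0.08) and 3 fell (TRIB1, -0.63 ± 0.14, IER5, -0.51 ± 0.07 and PPP1R15A, -0.41 ± 0.08).

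Of 18 tested AP-1 dimer partners and relatives, 3 rose and 4 fell with SNF5, beside 34.1% of all genes called, with a median log2 fold change of -0.11. The largest change was that of BATF (log2 1.87 ± 0.49, edgeR adjusted p = 0.0182), 1 of the 3 counted as risen. BATF had 7, 7 and 6 reads with EGFP, 6, 3 and 3 with OmoMYC and 18, 56 and 16 with SNF5. Only its SNF5 libraries brought it over the filter of a mean of at least 10 counts, so its call is not a fair test of a rise. BATF3 (-0.46 ± 0.13), MAFG (-0.41 ± 0.09) and CREM (-0.37 ± 0.08) fell. With OmoMYC only BACH1 of the 18 was called (0.29 ± 0.06), beside 8.53% of all genes.

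Of 25 upstream kinases and factors, 7 rose and 3 fell with SNF5, beside 34.1% of all genes called, with a median of -0.03. MAPK8, which encodes the JUN N-terminal kinase JNK1, rose (log2 0.64 ± 0.08, edgeR adjusted p = 0.000821), as did RPS6KA5 (0.52 ± 0.10), while MAP2K7, a kinase that activates JNK, fell (-0.41 ± 0.10). MAPK8 was also the only one of the 25 called with OmoMYC (0.38 ± 0.08), beside 8.53% of all genes.

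Of 20 tested genes known as AP-1 targets, 5 rose and 3 fell with SNF5, beside 34.1% of all genes called, with a median of 0.12. CD44, a cell surface adhesion receptor, rose 16.7-fold (log2 4.06 ± 0.64, edgeR adjusted p = 0.00205). Its gene body reads were 35, 36 and 54 with EGFP and 1461, 1311 and 157 with SNF5, so SNF5 replicate 3 was far below the other two. ITGA2 (1.22 ± 0.41), IL6 (1.19 ± 0.39), on 7 to 30 reads per EGFP library and 40 to 60 per SNF5 library, and AXL (0.99 ± 0.12) also rose. With OmoMYC 0 of the 20 rose and 4 fell, beside 8.53% of all genes called, namely PLAU, which encodes urokinase (-0.45 ± 0.08), VEGFA (-0.39 ± 0.10), CCND1 (-0.34 ± 0.08) and VIM (-0.28 ± 0.07).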

How the data were processed

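PRO-Seq, ATAC-Seq and MYC ChIP-Seq files were used as the authors deposited them. PRO-Seq reads were mapped by the authors to hg19 (Bowtie2) and assigned to transcripts with NRSA. The deposited table gives raw counts for 2 windows, promoter-proximal and gene body, and the latter also as a signal per bp. Peak lists, called by the authors in each sample with MACS2 (MYC in hg19, ATAC-Seq in hg38), hold a fold ratio over background, −log10 p, −log10 q and a display score that the authors' MACS2 derived from them and that was not used here. The 6 IgG samples were not used here, and the OmoMYC ChIP-Seq lists hold a placeholder line and no peak.

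Counts were tested with edgeR 4.0.16 (quasi-likelihood) in R 4.3.3, with 1 transcript per symbol, a mean of at least 10 counts, offsets from gene body totals times RLE factors for both regions, all 9 libraries in the fit and the replicate number as a block. The study's methods account for a batch effect without saying what the batch is. After removal of construct means, libraries of the same number correlated at 0.753 to 0.882 in gene bodies and others at -0.668 to 0.126, so the numbers were taken as pairs. The pausing index was tested as the interaction of region and construct. Within-number log2 differences used a pseudocount of 0.5 reads. DESeq2 1.42.0, TMM scaling from edgeR, other filters and leaving out libraries were alternatives. Only the PRO-Seq fits were tried on simulated counts, with no pass mark set for promoter-proximal counts.

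Starts were those of GENCODE canonical transcripts, listed by the annotation in both builds. The ATAC-Seq test was an exact permutation test in SciPy 1.17.1. The genes and lists were chosen with earlier results of these data known. By the rule for named genes all 10 enter every comparison, with values for each in gene bodies, near promoters for JUN and in the pausing index for JUN and EGR1, and counts of calls for the rest, and from each other list up to 4 called genes with the largest change, except that 1 item is not reported here.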

Additional observations from a re-analysis of the deposited data

How the results depend on the processing

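Without the replicate block, the number of the 10 genes called in the gene body was 1 with SNF5 (JUN), 0 with OmoMYC and 0 between SNF5 and OmoMYC, and 0 for promoter-proximal counts and the pausing index in each comparison; over all genes it was 225, 1 and 75 in the gene body against 5131, 1284 and 2848 with the block. With OmoMYC, 2 genes (EGR1 and JUND) were called in the gene body by DESeq2, with library totals only, with no filter and with the 2 constructs alone. The pausing index with SNF5 gave 0 calls by DESeq2 and with the 2 constructs alone. Promoter-proximal scaling gave 2 promoter-proximal calls with SNF5, and the 2 constructs alone gave 2 between SNF5 and OmoMYC. Leaving out a library or a replicate number gave 2 to 5 gene body calls with SNF5, 0 to 5 with OmoMYC and 1 to 6 between them; 0 to 2, 0 to 1 and 0 to 1 promoter-proximal calls; and 0 to 2, 0 to 2 and 0 to 0 pausing index calls. Of 1707 single-gene values under alternatives, 62 lost and 27 gained a call, none of the called values changed sign, and 89 uncalled values did. A 5 kb window gave 5 genes with a MYC peak in at least 1 EGFP library, and a −log10 q of at least 10 gave 1, and 0 in both. For ATAC-Seq starts, a 5 kb window gave 6, 4 and 8 genes for EGFP, OmoMYC and SNF5. A −log10 q of at least 10 gave 1, 2 and 3, and equal numbers of top peaks gave 2, 2 and 2. The SNF5 minus EGFP difference in peaks at the loci ran from 12.3 to 23.3 on leaving out a library and was -2.67 with equal numbers of top peaks; OmoMYC minus EGFP ran from -7.67 to 5.83. Pairing by number cannot change a difference of means, so these stayed at 18.3 and 1, and pairing was not checked here. Peak lists hold no read counts, so a missing peak may reflect depth, and the cause of these shifts was not tested.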

Other observations

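The 5 genes whose gene body counts followed the mean of the 10 most closely over 9 libraries, after the mean of each replicate number was removed, were PTPMT1, SS18, DLX2, NOD2 and PLAA, with Pearson r from 0.947 to 0.964, chosen for that likeness among 15050 genes. The 10 genes themselves correlated with their mean at -0.184 for ATF3 to 0.548 for FOSB. That mean was nearly flat, running only from -0.0932 log2 in SNF5 replicate 3 to 0.0955 in OmoMYC replicate 3. All of these values share library and depth.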
